A study of Mus musculus with 6 samples.

Results

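GABA-A receptors are the chloride channels that open when the transmitter GABA binds. The genes described here are 6 of their subunits: the alpha subunits Gabra2, Gabra3 and Gabra5, the beta subunits Gabrb1 and Gabrb2, and the gamma subunit Gabrg1. They were taken by name, and every probe set that the array platform's annotation assigns to them was read, 19 probe sets among those of 18193 genes with a single symbol. A gene's leading probe set is its brightest, by mean log2(signal + 32). The leading probe sets of 5 of the 6 were bright enough to enter the test across 9097 genes, and that of Gabra3 was not.

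Each array measured a pool of neurons from mouse dorsal root ganglia, the clusters of sensory cell bodies beside the spinal cord. L3-B pools were controls of 50 neurons. Those coded L3-S or L6-R had 20 neurons apiece, all with DiI taken up, a membrane dye carried back along the axon from where it is applied. Control against DiI, pool size and code cannot be told apart in any comparison with L3-B. Every code had 1 pool of big diameter and 1 of medium to small diameter, so there were 6 arrays and no replicate of any pool. Strain, genotype, age, the tissue that received the dye, what the codes stand for and how many animals gave cells are not stated in the labels. The p-values therefore reflect the spread among these pools alone, which may be technical and is not a spread between replicates. A lower signal from a pool cannot separate fewer expressing cells from less RNA in each.

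A GABA-A receptor is a ring of subunits, usually alpha and beta with a gamma. GABA binds where beta meets alpha, and the benzodiazepine drugs bind where gamma meets alpha. Sensory neurons keep a high chloride concentration, so GABA depolarises them, and receptors on their terminals in the spinal cord mediate presynaptic inhibition.

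Gabrg1, Gabra2 and Gabrb1 lie in a cluster on chromosome 5, in that order, with Cox7b2 and Gabra4 between Gabra2 and Gabrb1. Gabra5 is on chromosome 7, Gabrb2 on chromosome 11 and Gabra3 on chromosome X. The promoters of the cluster are shown because its outer genes, Gabrg1 and Gabrb1, were called higher in the L6-R pools and Gabra2 between them was not. The sequences are the 250 bases before an annotated start (RefSeq, GRCm38.p6), with matches to the motifs searched in capitals. Of the annotated starts of Gabrb1 the second is printed, since the first overlaps Gabra4.

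Gabrg1 (chr5:70842618-70842867, minus strand): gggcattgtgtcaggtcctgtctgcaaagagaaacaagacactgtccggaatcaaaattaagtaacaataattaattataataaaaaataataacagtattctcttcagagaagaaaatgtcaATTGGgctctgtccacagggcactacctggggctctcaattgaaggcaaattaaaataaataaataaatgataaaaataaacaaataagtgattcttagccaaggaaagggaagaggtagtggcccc
Gabra2 (chr5:71095850-71096099, minus strand): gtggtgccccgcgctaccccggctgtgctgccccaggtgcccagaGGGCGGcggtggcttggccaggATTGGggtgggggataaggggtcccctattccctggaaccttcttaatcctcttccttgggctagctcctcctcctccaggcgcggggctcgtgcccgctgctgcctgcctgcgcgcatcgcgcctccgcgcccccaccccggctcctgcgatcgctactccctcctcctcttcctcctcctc
Gabrb1 (chr5:71699682-71699931, plus strand): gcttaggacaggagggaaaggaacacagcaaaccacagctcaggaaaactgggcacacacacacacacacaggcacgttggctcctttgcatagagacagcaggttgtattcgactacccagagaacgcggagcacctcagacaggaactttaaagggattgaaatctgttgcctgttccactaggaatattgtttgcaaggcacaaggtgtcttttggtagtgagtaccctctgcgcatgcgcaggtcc

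The printed windows differ in composition. That of Gabrg1 was 35.6% G and C with 1 CpG, that of Gabra2 was 70.0% with 18 and that of the second Gabrb1 start was 50.8% with 6. The first Gabrb1 window, not printed, was 64.4% with 18 CpGs, close to that of Gabra2. The median over 32851 promoter windows of this length was 52.4% with 6 CpGs. The motifs searched on both strands were the AP-1 site TGACTCA, the cyclic AMP response element TGACGTCA, the GC box GGGCGG, the core promoter motif TATAAA, the E-box CACGTG, the SOX site ACAAAG and the motif CCAAT. Gabrg1 held CCAAT on the opposite strand, starting 127 bases before the start. Gabra2 held CCAAT on the opposite strand at 183 bases and a GC box at 205 bases, and neither match overlapped another. Neither Gabrb1 window held a match. CCAAT occurs in 33.8% of all windows, the GC box in 32.7%, the SOX site in 16.5%, TATAAA in 12.4%, the E-box in 6.02%, the AP-1 site in 4.46% and the cyclic AMP response element in 1.55%. A match describes the letters only.

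Differences below are those of log2(signal + 32), so they are shrunk where a signal is near 32, about the background of such arrays. They come with the standard error (SE) of 1 limma fit of code and size class to all 6 arrays. Its error is the departure of the pools from additive effects of code and size class, moderated by the spread of other genes. The arrays of a code differ in size class, so the SE is not a replicate error. "Called" means a Benjamini-Hochberg adjusted p under 0.05 over the 9097 genes tested. The comparisons between codes share arrays, so their values are not independent of each other.

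The 5' and 3' control signals and the markers describe the arrays. The share of probe sets under a signal of 32 was 55.3% to 59.5%, and the ratio of 3' to 5' Actb signal ran from 3.73 to 13.9. All 10 sensory neuron markers were measured and tested, none with a signal under 928. Markers of satellite glia and Schwann cells had signal too. The summed signal of the 12 measured was 13034 and 12067 for L3-B (big, then medium to small), 14161 and 17611 for L3-S and 15465 and 21687 for L6-R. These markers were uneven in brightness. In L3-B the brightest, S100b, had 6832 and 5546, while Sox10 had 38.7 and 7.36, so the sum does not measure glial content. Of 10 connective tissue and vessel markers, Col1a1, Pecam1 and Cdh5 were under 32 in every array, and the summed signal was 307 to 471 in L3-B and 1006 to 1814 in the other arrays. Of 9 blood and immune markers, 5 were under 32 in every array, among them Ptprc and Aif1.

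**Figure D1:**
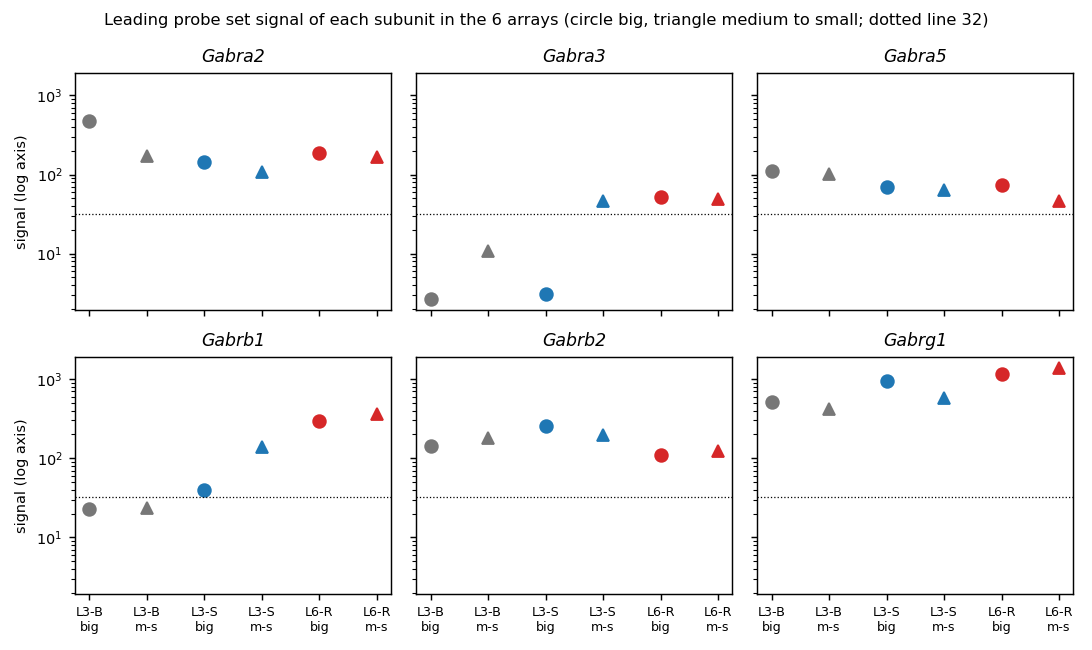
Signal of the leading probe set (y axis, log scale, no unit) of each of the 6 subunit genes in each array (x axis; m-s is medium to small); every point is 1 array. Gabrb1 lies under 32 in both L3-B arrays and at 294 and 367 in the L6-R arrays, and Gabrg1 is highest in L6-R, at 1175 and 1392.

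Among the 5 tested subunits, Gabrb1 had the largest differences between L6-R and the other codes. This gene encodes the beta1 subunit, a partner in the GABA binding site. Its signals were 22.8 and 23.6 for L3-B (big, then medium to small), 40.0 and 139 for L3-S and 294 and 367 for L6-R. The L6-R pools were both above the L3-S pools, and the L3-S pools both above the L3-B pools, with no overlap between codes. L3-B lay under 32, so differences from it are lower than the signals alone would give.

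Gabrb1 rose in L6-R over L3-S by 1.70 ± 0.31 log2 (SE, n = 2 arrays per code, limma adjusted p = 0.0254), which is 3.24-fold on this scale. The difference was 2.18 between the big pools and 1.22 between the medium to small pools. It was the 1 of 5 tested members called in this comparison, in which 3.18% of all genes were called. Gabrb1 entered the test through the L6-R pools: its mean log2(signal + 32) was 7.02 over all arrays and 6.29 without L6-R, under the 6.41 needed, and with no filter the same difference was not called (adjusted p = 0.0928). Leaving out the L3-S big array ended the call (1.15, adjusted p = 0.0880), as did leaving out the L6-R big array (1.53, adjusted p = 0.111), a pseudocount of 1 (2.12, adjusted p = 0.0803) and the mean of the gene's probe sets (0.89, adjusted p = 0.132). Adjusted p over 18 alternative settings ran from 5.66e-05 to 0.132.

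Against L3-B, Gabrb1 rose in L6-R by 2.71 ± 0.31 log2 (SE, n = 2 arrays per code, limma adjusted p = 0.00159), or 6.53-fold on this scale. It was higher in both size classes, by 2.57 and 2.84. The call held in all 18 alternative settings that tested the gene, with adjusted p from 2.04e-07 to 0.0171, and stood at 0.0129 with no filter. These settings are not independent: leaving out either L3-S array and fitting the compared codes alone are the same fit, at 2.71. The size depended on the scale, at 3.77 with a pseudocount of 1, 1.60 with the larger pseudocount tried, and 1.54 with the mean of the probe sets. L3-S stood above L3-B by 1.01 ± 0.31 (adjusted p = 0.236), 0.40 in the big pools and 1.62 in the medium to small pools, and was not called. It was called without the L3-S big array (1.56, adjusted p = 0.0189) and with the log2 ratio of 3' to 5' Actb signal as a covariate (0.95, adjusted p = 0.0150), and over 18 settings the adjusted p ran from 0.0150 to 0.860. The order of the codes by signal was L6-R, L3-S, L3-B. The step from L3-B to L3-S was not called in the main fit, and the call for the step from L3-S to L6-R depended on the filter and on other settings. The covariate adds a term, so its fit, here and below, has fewer residual degrees of freedom than the main one. In it 512 of all genes were called between L3-S and L3-B, against 93 in the main fit. The lowest adjusted p of each Gabrb1 range between codes came from that fit.

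Of the 4 probe sets of Gabrb1, the next brightest had the same order of codes as the leading one. Its signals were 2.63 and 15.1 for L3-B, 22.2 and 67.4 for L3-S and 254 and 183 for L6-R. In a fit of every probe set with no filter it differed by 1.76 between L6-R and L3-S (adjusted p = 0.204) and rose by 2.62 in L6-R over L3-B (adjusted p = 0.0465). The leading one gave adjusted p = 0.216 and 0.0443 in that fit. The third reached at most 42.4, and the dimmest stayed under 32 in all arrays, with differences of 0.31 and -0.19 between L6-R and L3-S.

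**Figure D2:**
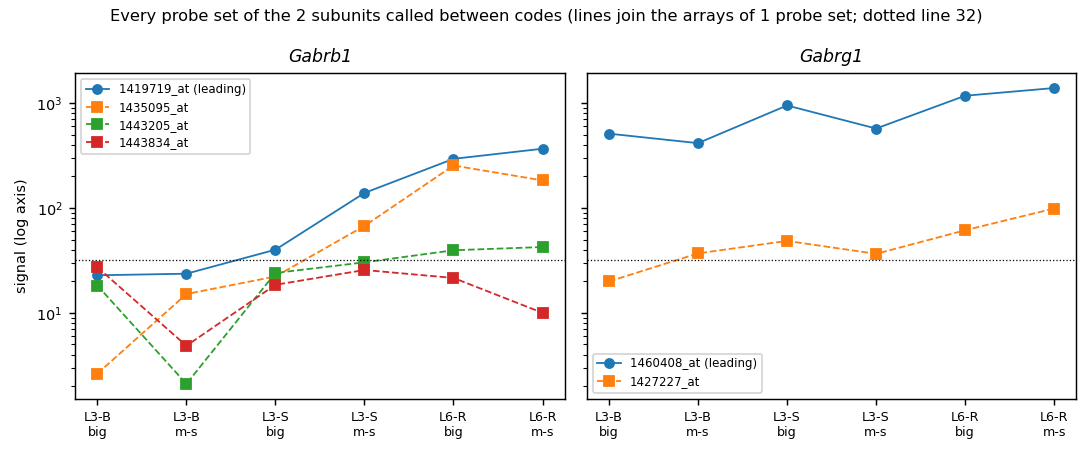
Signal (y axis, log scale, no unit) of every probe set of Gabrb1 (left) and Gabrg1 (right) in the 6 arrays (x axis; m-s is medium to small); each line joins the values of 1 probe set. The 2 brighter Gabrb1 probe sets reach 183 to 367 in the L6-R arrays, and the second Gabrg1 probe set goes from 19.9 to 98.8.

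Gabrg1, the gamma1 subunit, takes the place in the receptor where gamma subunits form the benzodiazepine site. It had signals of 511 and 415 for L3-B (big, then medium to small), 949 and 572 for L3-S and 1175 and 1392 for L6-R. No code overlapped another, and all 6 signals were well above 32. Gabrg1 rose in L6-R over L3-B by 1.41 ± 0.27 log2 (SE, n = 2 arrays per code, limma adjusted p = 0.0162), 2.66-fold on this scale, with 1.15 in the big pools and 1.67 in the medium to small pools. With Gabrb1 it made 2 of 5 tested members called between L6-R and L3-B, in which 7.51% of all genes were called in either direction and 424 of 9097 rose. Gabrb1 passed the filter on dim genes only through the L6-R pools, which leaves 1 of the 2. With the medium to small L6-R array left out the Gabrg1 difference was 1.05 (adjusted p = 0.203), and with no filter on dim genes it missed the threshold (adjusted p = 0.0519). Over 19 settings the adjusted p ran from 0.000343 to 0.203.

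L6-R stood above L3-S in Gabrg1 by 0.77 ± 0.27 (adjusted p = 0.20), and L3-S above L3-B by 0.64 ± 0.27 (adjusted p = 0.457). Neither was called, but the first was with the Actb covariate (0.77, adjusted p = 0.0434; over 19 settings up to 0.892). In the first, the big pools differed by 0.30 and the medium to small pools by 1.24. The second probe set of Gabrg1 had signals of 19.9 and 36.9 for L3-B, 48.5 and 36.5 for L3-S and 61.3 and 98.8 for L6-R. It was higher in L6-R than in L3-B in both size classes, by 0.89 in the fit of every probe set (adjusted p = 0.250), where the leading one missed the threshold too (adjusted p = 0.119).

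Some markers of other cells moved with these subunits. Sox10, a transcription factor of glia, had signals of 38.7 and 7.36 for L3-B, 90.9 and 105 for L3-S and 124 and 202 for L6-R. It rose in L6-R over L3-B by 1.86 (adjusted p = 0.0122). Apoe, Mbp, Mal and Fabp7 rose there too, so 5 of the 11 tested glial markers were called higher and none lower, where 7.51% of all genes were called. By sign, 10 were higher and 1 lower, with a median of 1.10. The lower one was S100b (-0.29, limma adjusted p = 0.517), and Glul (0.10) and Pmp22 (0.50) were among those not called. Sox10 and Mal were bright enough to be tested only through the L6-R pools. Dcn, a matrix gene of fibroblasts, had 154 and 89.1 for L3-B, 310 and 177 for L3-S and 506 and 771 for L6-R, and rose over L3-B by 2.13 (adjusted p = 0.00620). All 3 tested connective tissue and vessel markers were called in that direction. Between L6-R and L3-S no glial marker was called, but 9 of the 11 were higher and 2 lower, with a median of 0.33. The highest was Mal, at 1.63 (limma adjusted p = 0.0515). Of the 3 tested connective tissue and vessel markers, 2 were higher and 1 lower there, none called. The part of glia or connective tissue in the Gabrb1 and Gabrg1 signals was not tested.

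Some neuron class markers moved as well. Of 7 tested markers of peptidergic nociceptors, 6 rose in L6-R over L3-B, where 7.51% of all genes were called, and 5 rose in L6-R over L3-S, where 3.18% were. Of these, Trpv1, Trpa1 and Gal passed the filter on dim genes only through L6-R, which leaves 3 and 2 that passed it without those pools. Trpv1 is the heat- and capsaicin-gated channel, and it had signals of 18.7 and 19.6 for L3-B, 108 and 56.1 for L3-S and 616 and 392 for L6-R. Of 7 tested markers of large myelinated-fibre neurons, 4 fell in L6-R against L3-B, among them the neurotrophin receptor Ntrk3 (-2.11, adjusted p = 0.00134). Against L3-S all 7 were lower in L6-R and 2 fell, where 3.18% of all genes were called. Those were Pvalb (-5.07, limma adjusted p = 0.000566) and Vamp1 (-1.26, adjusted p = 0.0216). In L3-S over L3-B, where 1.02% were called, Pvalb rose by 1.81 (adjusted p = 0.0435), and 6 of the 7 were lower. Markers of non-peptidergic nociceptors had 0 of 4 tested called in any code comparison, with medians of 0.51 for L6-R against L3-S and 0.11 against L3-B. Sensory neuron markers as a whole had 0 of 10 called in any code comparison, with medians of 0.14 for L6-R against L3-S and 0.38 against L3-B. The share of each neuron class in the subunit differences was not tested.

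**Figure D3:**
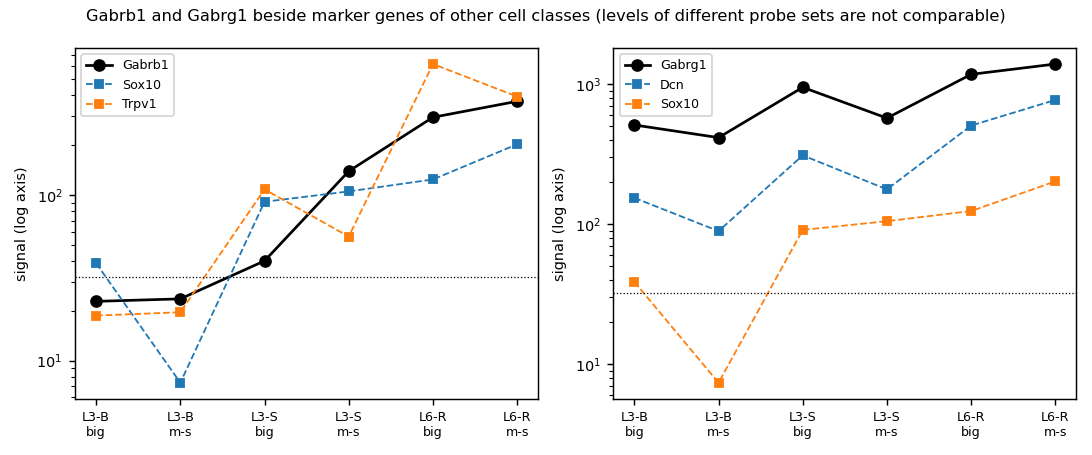
Signal (y axis, log scale, no unit) of Gabrb1 beside Sox10 and Trpv1 (left) and of Gabrg1 beside Dcn and Sox10 (right) in the 6 arrays (x axis; m-s is medium to small); each line joins the values of 1 leading probe set. All of these genes are higher in both L6-R arrays than in both L3-B arrays, Sox10 at 124 and 202 against 38.7 and 7.36; heights of different probe sets are not comparable.

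Gabra2, the alpha2 subunit found at inhibitory synapses, was highest in a control pool. Its signals were 476 and 170 for L3-B (big, then medium to small), 144 and 108 for L3-S and 188 and 167 for L6-R. The L3-B big array stood above the other 5, which ran from 108 to 188. L3-S differed from L3-B by -1.03 ± 0.31 log2 (SE, n = 2 arrays per code, limma adjusted p = 0.222), with -1.53 in the big pools and -0.53 in the medium to small pools. It was not called: none of the 5 tested members was called between L3-S and L3-B by limma, where 1.02% of all genes were called. At an unadjusted p under 0.05 stood 3 of the 5 members and 924 of the 9097 genes. L6-R differed from L3-B by -0.61 (adjusted p = 0.298) and from L3-S by 0.42 (adjusted p = 0.572).

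Gabra2 calls depended on 1 array and 1 control ratio. The L3-B big array also had the highest Actb ratio, 13.9 against 3.73 in the other L3-B array. With the log2 Actb ratio as a covariate the L3-S difference was -1.09 (adjusted p = 0.00609), while leaving out the L3-B medium to small array gave -1.58 (adjusted p = 0.0371) and leaving out the L3-B big array -0.48 (adjusted p = 0.468), in a range of adjusted p from 0.00609 to 0.474 over 18 settings. L6-R against L3-B was likewise called with the covariate (-0.69, adjusted p = 0.0435) and without the L3-B medium to small array (-1.16, adjusted p = 0.0340), and stood at -0.07 without the L3-B big array (range of adjusted p 0.0340 to 0.946). A lower brightness in L3-S was also seen in the second Gabra2 probe set, with signals of 158 and 94.7 for L3-B, 27.6 and 22.1 for L3-S and 60.7 and 81.7 for L6-R. There the L3-S arrays were both under 32 and the codes did not overlap, with a difference of -1.45 between L3-S and L3-B in the fit of every probe set (adjusted p = 0.386). The other 3 probe sets of Gabra2 reached at most 61.6.

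Gabra5, the alpha5 subunit of receptors that often lie outside synapses, had 1 probe set and low signals. They were 112 and 101 for L3-B, 69.6 and 64.3 for L3-S and 73.5 and 45.7 for L6-R. Both control pools were above all 4 DiI pools, and L3-S and L6-R overlapped. Gabra5 differed by -0.61 ± 0.23 between L6-R and L3-B (95% confidence interval -1.13 to -0.09, adjusted p = 0.161) and by -0.49 between L3-S and L3-B (adjusted p = 0.533). L6-R and L3-S differed by -0.13, with an interval of -0.64 to 0.39. Over the 6 arrays, which share their processing, Gabra5 ran opposite to the glial and to the connective tissue marker lists (Pearson -0.95 for each). With the other marker lists it ran from -0.77 (peptidergic nociceptors) to 0.64 (large myelinated-fibre neurons). The part of these cells in the Gabra5 signal was not tested.

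Gabra3, the alpha3 subunit, was near background. Its leading probe set had signals of 2.66 and 10.9 for L3-B, 3.08 and 46.3 for L3-S and 51.8 and 48.8 for L6-R. It was over 32 in both L6-R arrays and in the L3-S medium to small array. In the fit with no filter on dim genes it differed by 1.09 between L6-R and L3-B (adjusted p = 0.160) and by 0.65 between L6-R and L3-S (adjusted p = 0.468). The other probe set of Gabra3 was under 32 in all 6 arrays.

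Gabrb2, the beta2 subunit, was highest in L3-S. Its signals were 142 and 179 for L3-B (big, then medium to small), 252 and 198 for L3-S and 109 and 124 for L6-R. The codes did not overlap, in the order L3-S, L3-B, L6-R. L6-R differed from L3-S by -0.79 ± 0.24 log2 (SE, n = 2 arrays per code, limma adjusted p = 0.140), with -1.01 in the big pools and -0.56 in the medium to small pools, and was not called. With the Actb ratio as a covariate the adjusted p was 0.0236, the lowest of 18 settings, which reached 0.733. L3-S and L3-B differed by 0.42 (interval -0.13 to 0.97), and L6-R and L3-B by -0.37 (interval -0.92 to 0.18).

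In all 5 probe sets of Gabrb2 the fitted value was lower in L6-R than in L3-S. The second brightest had 159 and 120 for L3-B, 270 and 193 for L3-S and 126 and 135 for L6-R. The differences between L6-R and L3-S in the 5 probe sets were -0.79, -0.68, -0.59, -0.39 and -0.23 in order of brightness, none called in the fit of every probe set. Against L3-B, L6-R was at -0.37, -0.07, -0.01, 0.13 and -0.22, so the side of 0 varied between probe sets there.

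**Figure D4:**
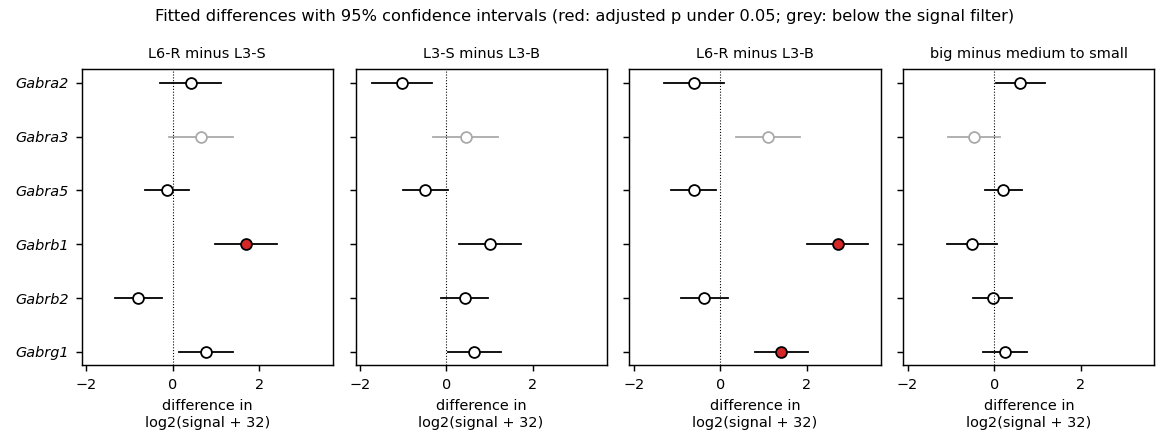
Fitted difference in log2(signal + 32) (x axis) for each subunit gene (rows) in the 4 comparisons (panels); points are estimates, bars are 95% confidence intervals, and red marks an adjusted p under 0.05. Red points are Gabrb1 at 1.70 in the first panel and 2.71 in the third, and Gabrg1 at 1.41 in the third; Gabra3, in grey, was under the signal filter.

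Size class gave no call. Big and medium to small pools were compared over all codes, 3 arrays each. By limma 0% of all genes passed, with 320 of 9097 at an unadjusted p under 0.05. Of the 5 members 0 passed, and Gabra2 had an unadjusted p of 0.0413. Gabra2 was higher in the big pools of every code, by 1.33 in L3-B, 0.33 in L3-S and 0.15 in L6-R (fitted 0.60, interval 0.03 to 1.18, adjusted p = 0.998). Gabra5 was also higher in the big pool of each code, by 0.12, 0.08 and 0.44 in the same order (fitted 0.21, interval -0.21 to 0.64). Gabrb1 was lower in the big pools, by -0.02, -1.25 and -0.29 (fitted -0.52, interval -1.10 to 0.06). Gabrg1 and Gabrb2 were higher in the big pools of some codes and lower in others.

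Over the 5 tested members the median difference was 0.42 for L6-R against L3-S, 0.42 for L3-S against L3-B and -0.37 for L6-R against L3-B. The medians of all tested genes were -0.01, 0.03 and 0.02. Members pointed both ways in each: 3 higher and 2 lower, 3 higher and 2 lower, and 2 higher and 3 lower.

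Members were compared in their pattern over the 6 arrays. As a description over 6 arrays that share their processing, Gabrb1 and Gabrg1 had a Pearson correlation of 0.79, and Gabrb1 and the dim Gabra3 one of 0.93. Gabra5 ran opposite to Gabrb1 (-0.81) and to Gabrg1 (-0.78). Among 2442 tested genes that varied by at least 1 log2, those most like Gabrb1 were Phldb1 (0.997), Fads3 (0.995) and Synpr (0.990), the last a synaptic vesicle protein. Fads3, a fatty acid desaturase family member, had signals of 28.8 and 34.5 for L3-B, 70.5 and 160 for L3-S and 354 and 451 for L6-R. Those most like Gabrg1 were Pdlim2 (0.997), Dcn (0.988) and Sft2d2 (0.987). Ptchd4, Pip4p1 and Thsd7a were nearest to Gabra2 (0.963 to 0.978). Spry4, Prokr1 and Spin2c were nearest to Gabra5 (0.972 to 0.977), and Chchd4, Mrpl42 and Cables2 to Gabrb2 (0.977 to 0.990). All were picked as the highest of 2442 genes over 6 arrays, which by itself gives high correlations, and likeness was not tested.

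Other genes of GABA signalling were read from lists of receptor, anchoring, metabolic and chloride genes. Of 9 other GABA-A subunit genes measured, none was bright enough to be tested. The exception to a signal under 32 in every array was Gabra4, the alpha4 subunit next to Gabrb1, at 60.9 in the L6-R medium to small array and at most 29.7 elsewhere. Gabra6, Gabrd, Gabre, Gabrg3, Gabrp, Gabrq, Gabrr1 and Gabrr2 were under 32 in all 6 arrays, by their leading probe sets. A further 4 subunit genes on the list were not analysed here.

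Of 16 tested genes for anchoring and traffic of the receptors, 1 was called in L3-S against L3-B, where 1.02% of all genes were. The same gene was the 1 called in L6-R against L3-S, where 3.18% were, and none was called in the other comparisons. Plcl2, a phospholipase-like protein of the family that binds GABA-A receptor beta subunits and GABARAP, was high in L3-S. Its signals were 42.2 and 39.7 for L3-B, 163 and 230 for L3-S and 34.4 and 58.3 for L6-R. The L3-S arrays were above all 4 others, and Plcl2 passed the filter on dim genes only through them (mean 6.23 without L3-S, 6.41 needed). Plcl2 rose in L3-S over L3-B by 1.63 ± 0.24 (adjusted p = 0.0196) and fell by 1.55 in L6-R against L3-S (-1.55 ± 0.24, adjusted p = 0.0122). Gephyrin (Gphn), the scaffold of inhibitory synapses, differed by -0.57 between L6-R and L3-B (adjusted p = 0.234), the receptor-stabilising Ubqln1 by -0.62 (adjusted p = 0.207) and Clptm1, which holds subunits back in the endoplasmic reticulum, by -0.74 between L6-R and L3-S (adjusted p = 0.327). Gabarapl2, of the GABARAP family, stood at 0.60 in L3-S against L3-B (adjusted p = 0.573). By size class, radixin (Rdx), which anchors alpha5 receptors, stood at 0.36 and neuroligin 2 (Nlgn2) at 0.33, neither called. The list's medians were -0.20, 0.01 and -0.16 for L6-R against L3-S, L3-S over controls and L6-R over controls.

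Genes that make and take up GABA were mostly near background. Of 10 measured, Gad2 (a GABA-synthesising enzyme), Slc32a1 (the vesicular GABA transporter), Slc6a11, Slc6a12, Slc6a13 and Maob were under 32 in every array. The 3 tested were enzymes of GABA breakdown and aldehyde oxidation, and none was called. Aldh5a1 had signals of 206 and 193 for L3-B, 201 and 219 for L3-S and 148 and 93.2 for L6-R, and differed by -0.69 between L6-R and L3-S (adjusted p = 0.202). Aldh9a1 stood at -0.27 in that comparison and Abat, the GABA transaminase, at 0.16.

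The metabotropic GABA-B receptor subunit Gabbr1 had signals of 1786 to 2646 and differed by -0.15 between L6-R and L3-S (adjusted p = 0.812). Its auxiliary subunit Kctd8 differed by -0.53 (adjusted p = 0.445). The glycine receptor, a related chloride channel, was represented by its beta subunit Glrb, while Glra1, Glra2, Glra3 and Glra4 were under 32 in all arrays. Glrb had 1738 and 2527 for L3-B, 1681 and 1680 for L3-S and 886 and 1126 for L6-R. The L6-R arrays were below the other 4, and Glrb fell by 1.05 in L6-R against L3-B (-1.05 ± 0.24, adjusted p = 0.0329), while -0.73 against L3-S was not called (adjusted p = 0.160).

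Genes that set the chloride gradient, 6 of them tested, had no call in any comparison. Slc12a2, the importer NKCC1, had signals of 666 and 576 for L3-B, 886 and 717 for L3-S and 714 and 853 for L6-R, and its differences between codes were -0.03 to 0.35. The exporter Slc12a5 had 90.3 and 106 for L3-B, 55.0 and 47.2 for L3-S and 21.5 and 63.1 for L6-R, and differed by -0.87 between L6-R and L3-B (adjusted p = 0.106). Slc12a7, another exporter, stood at 1.83 in L3-S over L3-B (adjusted p = 0.0896), with 118 and 229 against 47.7 and 7.0 in the controls. Slc12a7 passed the filter on dim genes only through the L3-S pools (mean 6.22 without them). Slc12a5 passed it only through the L3-B pools (mean 6.27 without them). Stk39, a kinase that activates the importer, stood at -0.69 between L6-R and L3-B (adjusted p = 0.104). Dbi, whose peptides act at the benzodiazepine site, differed by -0.78 there (adjusted p = 0.334).

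**Figure D5:**
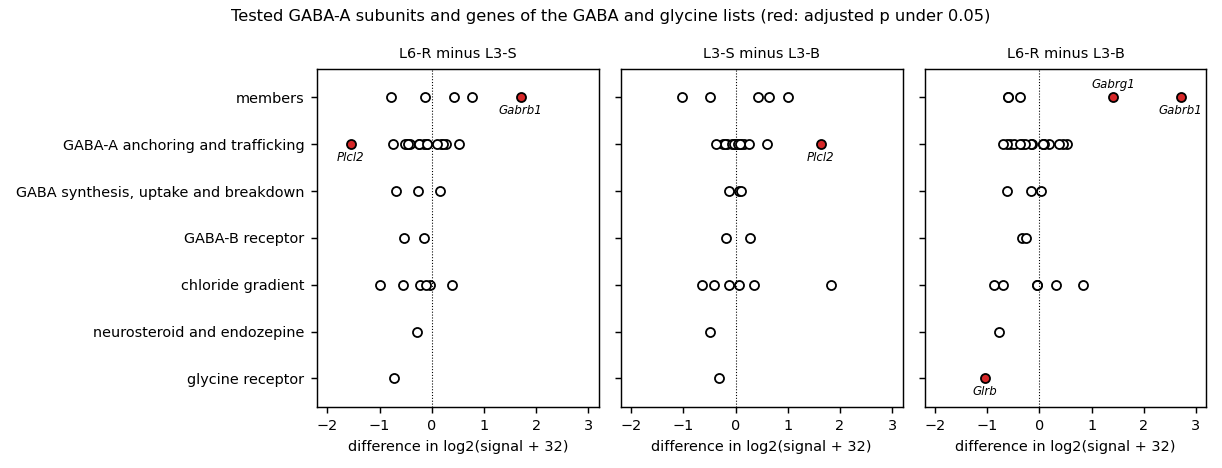
Fitted difference in log2(signal + 32) (x axis) of the 5 tested subunits (row named members) and of the tested genes of each list (rows) in the 3 comparisons between codes (panels); each point is 1 gene and red marks an adjusted p under 0.05. Outside the subunits the red points are Plcl2 at -1.55 and 1.63 and Glrb at -1.05.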

How the data were processed

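The deposited table holds the authors' probe set values for 6 Affymetrix arrays as linear signal intensity, 45037 probe sets and 64 controls. The mean after trimming 2% at each end was 150 in every array, so the values were taken as scaled and were not normalized again. How probe sets were summarised and scaled: not given in the sources used here. Precision is limited by the number of arrays.

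Probe sets were named by the platform annotation, with 34945 carrying 1 symbol, 932 several (not used) and 9160 none. Updating symbols by gene identifier changed 0. Values were taken as log2(signal + 32), 1 leading probe set per gene, and the upper 50% of 18193 genes by mean (at least 6.41) were tested. R 4.3.3 with limma 3.58.1 (lmFit, eBayes; 2 residual and 6.46 prior degrees of freedom; two-sided) fitted code and size class without interaction. The comparisons are 3 between codes and 1 between size classes. The script was tested on simulated data.

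The members and gene lists were chosen with earlier results of these data known. Named genes are all members, called genes of the lists, in each comparison the 2 of a list with the smallest unadjusted p (not all are printed), and the 3 most correlated genes per tested member. Marker examples such as Trpv1, and Slc12a2, were chosen after their values were seen. Alternatives were quantile normalization, a smaller and a larger pseudocount, other filters, probe set rules and moderation, array weights, other models and each array left out. RefSeq promoters were found by symbol for all 6 members, and only those of Gabrg1, Gabra2 and Gabrb1 were searched for motifs.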

Additional observations from a re-analysis of the deposited data

Results flagged for a closer look

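In 2 subunits the difference between size classes took opposite signs in different codes, by at least 0.2 log2 each way. With 1 array for each code and size class these differences were not tested. Gabrg1 was higher in the big pool by 0.70 in L3-S and by 0.28 in L3-B, and lower in the big pool in L6-R (-0.24). Gabrb2 was higher in the big pool by 0.31 in L3-S and lower in L3-B (-0.28) and in L6-R (-0.14).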

How the results depend on the processing

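The count of called members in L6-R against L3-S was 1. It was 0 with a pseudocount of 1, with no filter, with the upper 25% of genes and with the mean of probe sets, 3 with the Actb ratio as a covariate, and 0 to 1 with each array left out. In L3-S against L3-B it was 0, then 2 with the Actb covariate and 0 to 1 with each array left out. In L6-R against L3-B it was 2, then 3 with the Actb covariate (Gabra2 added), 1 with no filter, 1 with the upper 25% of genes (where Gabrg1 was the 1 member tested) and 1 to 3 with each array left out. It was 0 between size classes in all 18 alternatives. Gabrb2 between size classes (-0.04) changed sign with quantile normalization (0.01), the mean of probe sets (0.11) and the Actb covariate (0.00), and ran from -0.21 to 0.08 with each array left out. Gabra5 in L6-R against L3-S ran from -0.30 to 0.04 there. The cause was not tested. Over all genes, 289 were called in L6-R against L3-S, 93 in L3-S against L3-B and 683 in L6-R against L3-B. In that order the counts were 994, 512 and 1590 with the Actb covariate, 134, 46 and 481 with a pseudocount of 1, 107, 14 and 457 with no filter, and 115, 21 and 299 with the upper 25% of genes, of which fewer were tested. They were 653, 171 and 995 with the compared codes alone, 633, 48 and 721 with array weights, 193, 41 and 492 with the mean of probe sets, and 140 to 653, 61 to 202 and 356 to 995 with each array left out. Between size classes 2 genes were called with the Actb covariate and 0 to 1 with each array left out. A fit with 1 array left out has 1 residual degree of freedom and assumes that a lone array varies like the others. The fit with the Actb covariate also has 1. Leaving out an array of the code not compared gives the same fit as the compared codes alone, so these settings are not independent. Signals near 32 limit Gabra3, Gabra5 and the L3-B values of Gabrb1. The labels give no replicate numbers to block on. The pools of a size class are matched across codes by the size term of the fit, and without that term the members called were 1, 0 and 2, as with it.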
